A study of Mus musculus with 8 samples.

Results

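Glutamate and GABA receptor subunits were described in the glial and neurogenic cells of the mouse hippocampus. The 48 genes were taken by symbol from the 55487 gene IDs in each hippocampal matrix: the AMPA (Gria), kainate (Grik), NMDA (Grin), delta (Grid) and metabotropic (Grm) glutamate receptors, and the GABA-A (Gabr) and GABA-B (Gabbr) receptors. One of the 8 genes matched as NMDA, Grin1os, is the opposite-strand transcript of Grin1 and encodes no subunit. The matrices came from 1 library of Foxp3-DTR- mice (DTRneg) and 1 library of Foxp3-DTR+ littermates (DTRpos), each from 2 pooled mice. All mice of both groups received diphtheria toxin, which kills cells that carry its receptor (DTR), here placed under control of Foxp3, the transcription factor of regulatory T cells. Cells were sorted as CD45- Thy1-, a gate that removes leukocytes and most neurons, although the labels call the material neurons and glia. The age and sex of the mice are not given in the sources used here. The comparison of the libraries asks how the hippocampal niche changes after a short depletion of regulatory T cells.

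AMPA, kainate, NMDA and GABA-A receptors are ion channels built from several subunits, so the subunits a cell transcribes set which channels it can build. Metabotropic glutamate receptors and the GABA-B receptor couple to G proteins, and the GABA-B receptor needs both Gabbr1 and Gabbr2. Oligodendrocyte precursor cells (OPCs) are known to receive synaptic input from neurons through AMPA and GABA-A receptors, and astrocytes to sense transmitter through metabotropic and GABA receptors.

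Cells were put into classes by UMIs (unique molecular identifiers, each a counted RNA molecule) of 1 marker gene each. The classes were OPC-like (Pdgfra, 665 DTRneg and 810 DTRpos cells), committed oligodendrocyte-like (Enpp6, 78 and 31), mature oligodendrocyte-like (Mog, 3664 and 2550), astrocyte-like (Aqp4, 639 and 678), neural stem cell-like (Riiad1, 29 and 23) and neuroblast-like (Igfbpl1, 183 and 135). All 6 further markers of the OPC, committed, mature and astrocyte classes and all 7 of the neuroblast class were raised in their class, against 4 of 7 for the stem cell class (Sox4, Lpar1 and Vnn1 were not). The libraries held 53484704 and 35814655 UMIs, and the 6864 and 5691 cells kept had medians of 6003.5 and 4509 UMIs. Class sums ran from 83271 UMIs (stem cell-like, DTRpos) to 35797219 UMIs (mature, DTRneg), so the stem cell and committed classes carry the widest errors. Endothelial cells (Cldn5, 475 and 348 cells), which should lack most of these receptors, gave the background level of free RNA, at median depths of 1978 and 1608.5 UMIs. Barcode sequences common to both libraries numbered 18. Free RNA of the choroid plexus differed between libraries: Ttr, a choroid plexus gene, stood at 70.0 to 109 CPM (the usual depth-scaled count, taken over all UMIs of the class in a library) in the 6 DTRneg classes and at 21.7 to 31.7 CPM in the DTRpos classes.

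The stretch of the AMPA subunit genes that bears on the first result is the Q/R site, a codon in the pore-forming loop. In Gria2 transcripts adenosine-to-inosine editing of this codon is known to make channels that contain the subunit impermeable to calcium, while the codon is not edited in Gria1, Gria3 and Gria4. The genomic codon with 21 bases on each side, read 5′ to 3′ on the coding strand from the GENCODE M21 transcripts (GRCm38), is shown with the codon in capitals.
Gria1: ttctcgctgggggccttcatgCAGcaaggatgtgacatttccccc
Gria2: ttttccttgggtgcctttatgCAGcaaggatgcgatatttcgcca
Gria3: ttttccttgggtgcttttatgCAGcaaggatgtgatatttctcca
Gria4: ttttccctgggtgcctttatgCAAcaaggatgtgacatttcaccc
The Gria2 codon lies in exon 11 of 16 at chr3:80706911-80706913 (minus strand). The others lie at chr11:57243094-57243096 (Gria1, plus strand, exon 11), chrX:41610265-41610267 (Gria3, plus strand, exon 11) and chr9:4464137-4464139 (Gria4, minus strand, exon 12). Over the 45 bases the Gria3 stretch differs from Gria2 at 3 positions, Gria4 at 6 and Gria1 at 9. Editing itself is not in these counts, and the share of Gria2 among AMPA subunit transcripts is what was measured.

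Of the 48 genes, 32 had at least 20 UMIs over the 6 classes, 16 had fewer, and 5 of those 16 had none. Among the 16 were Grin1os, Grin2a, Grin3b, Grm2, Grm4, Grm6, Grm8, Gabra5, Gabra6, Gabrd, Gabre, Gabrp, Gabrq, Gabrr1 and Gabrr3. Grm6, Gabra6, Gabrp, Gabrr1 and Gabrr3 had no UMI in these classes. Of the 32, 28 had their highest level in the same class in both libraries: 19 in OPC-like cells, 6 in astrocyte-like cells and 1 each in mature oligodendrocyte-like, stem cell-like and neuroblast-like cells. For 17 of these 28 the highest class exceeded the second beyond counting error in both libraries, 11 of them in OPC-like cells and 4 in astrocyte-like cells. The heat map of subunit levels shows OPC-like cells with nearly all families and mature oligodendrocyte-like cells with few.

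**Figure D1:**
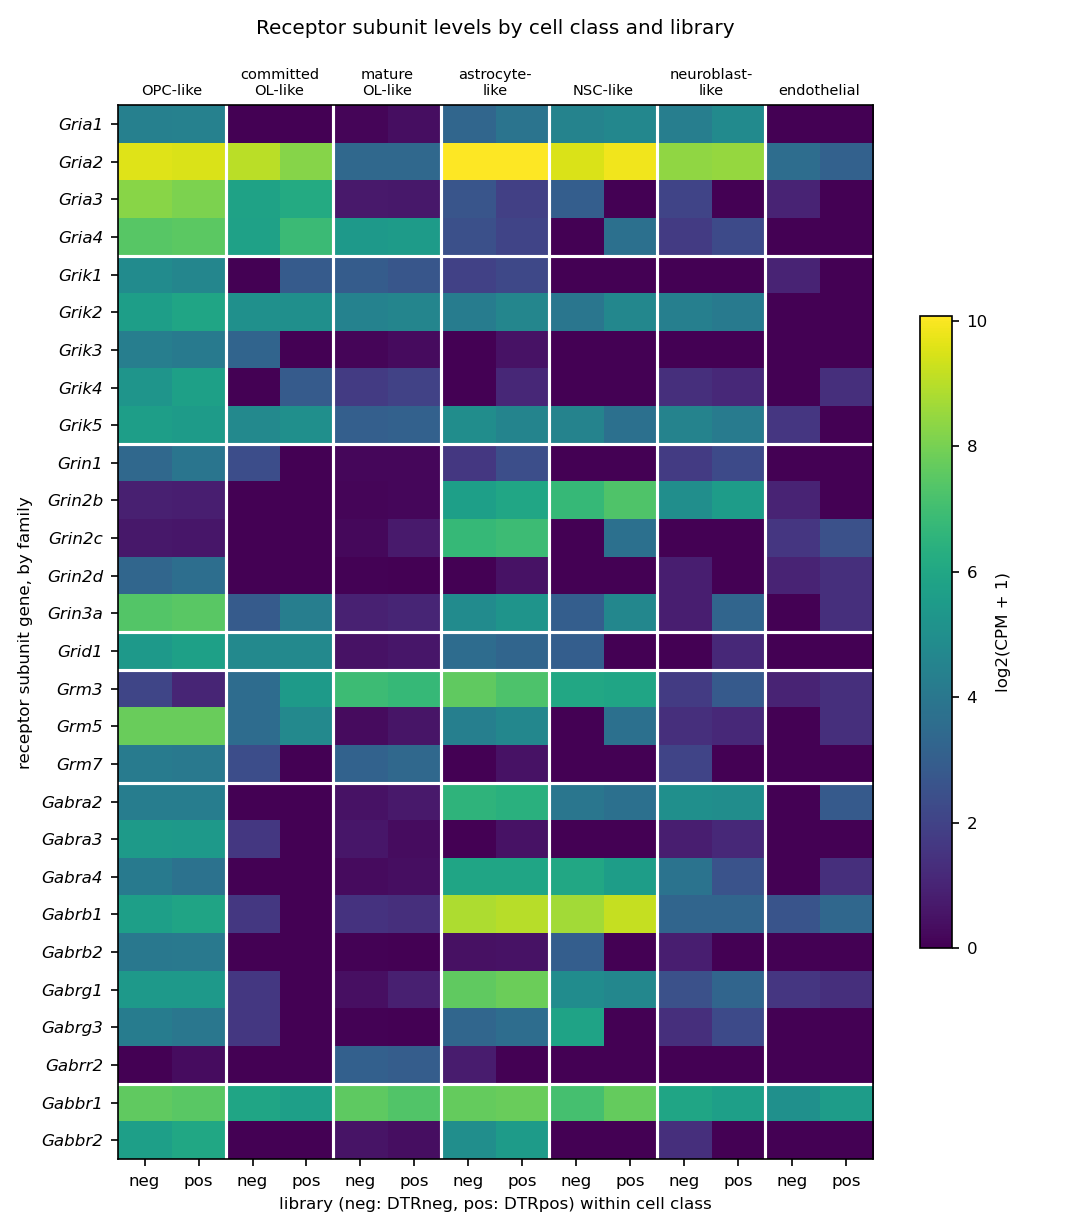
Heat map of log2(CPM + 1) for 28 subunit genes with at least 20 UMIs (rows, grouped by family) in 6 cell classes and endothelial cells (column pairs, DTRneg left and DTRpos right). Gria2 is brightest in astrocyte-like cells at 1078 and 1053 CPM, and Gabrr2 is seen in mature oligodendrocyte-like cells at 7.43 and 6.83 CPM.

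Each class was tested against the mean of the other 5 with edgeR's quasi-likelihood test on the 12 sums (6 classes in 2 libraries), with the library as a block and Benjamini-Hochberg adjustment over 13421 genes. These p-values rest on how the classes deviate between the 2 libraries once the overall shift between the libraries is removed. The 2 libraries also differ in genotype, and no spread between animals is estimated. In OPC-like cells 28 of 32 subunits were called higher and 1 lower, where 28.4% of all genes were called higher and 13.9% lower. In astrocyte-like cells 17 were called higher and 1 lower (32.9% and 15% of all genes). Mature oligodendrocyte-like cells had 6 higher and 10 lower (32.8% and 19.8%), a share of subunits called higher below that of all genes. Committed cells had 5 higher and 7 lower (15.2% and 8.27%), stem cell-like cells 6 and 0 (8.28% and 5.99%), and neuroblast-like cells 5 and 10 (28% and 18.9%). The comparison averages log levels, so a class at 0 lowers the mean of the others, and 17 of the 32 subunits were at 0 in both libraries of at least 1 class. For those a call says little on how far the class stands from the others, and levels are given instead of fitted fold changes.

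Gria2, the AMPA receptor subunit with the edited Q/R site, stood at 777 and 721 CPM in OPC-like cells (DTRneg and DTRpos, in this order throughout). It reached 1078 and 1053 CPM in astrocyte-like cells, 730 and 937 in stem cell-like cells and 339 and 352 in neuroblast-like cells. Mature oligodendrocyte-like cells had 9.50 and 9.71 CPM, beside 11.1 (5.56 to 19.9) and 7.85 (2.55 to 18.3) CPM in endothelial cells. The mature levels lay within these exact Poisson 95% intervals, so Gria2 there could not be told from background. The order of levels was the same in both libraries for astrocyte-like, OPC-like and neuroblast-like cells. Gria2 was called higher in OPC-like cells (adjusted p = 4.37e-51), astrocyte-like cells (adjusted p = 1.8e-313) and stem cell-like cells (adjusted p = 2.15e-28).

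Gria3, a second pore subunit, was an OPC gene in these cells: 311 and 274 CPM in OPC-like cells against 5.27 and 2.77 in astrocyte-like cells and 0.615 and 0.577 in mature cells. Gria4 stood at 176 and 186 CPM in OPC-like cells and was the AMPA subunit that stayed in mature oligodendrocyte-like cells, at 41.2 and 44.6 CPM, with no UMI in endothelial cells. It was called higher in both classes (adjusted p = 2.44e-112 and 4.45e-23), and the second call was lost in limma on log2 CPM (adjusted p = 0.124). Gria1 was low in all classes. Its highest levels were 18.9 and 27.5 CPM in neuroblast-like cells, 19.8 and 20.6 in OPC-like cells and 21.5 and 24.02 in stem cell-like cells. The stem cell-like levels rest on 3 and 2 UMIs, with exact Poisson intervals of 4.43 to 62.7 and 2.91 to 86.8 CPM.

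Shares within the family are shares of 3′-end molecule counts, which are not scaled by transcript length, and capture can differ between genes. Gria2 made up 98.3% and 98.2% of Gria1 to Gria4 UMIs in astrocyte-like cells (exact binomial 95% intervals 97.8 to 98.7% and 97.6 to 98.6%), 96.2% and 96.3% in stem cell-like cells and 93.3% and 91.9% in neuroblast-like cells. In OPC-like cells it made up 60.5% (59.1 to 61.9%) and 60.01% (58.6 to 61.5%), with Gria3 at 24.2% and 22.8% and Gria4 at 13.7% and 15.5%. In mature oligodendrocyte-like cells Gria4 came first, at 80.1% (78.2 to 81.9%) and 80.8% (78.5 to 83.0%) and Gria2 at 18.5% and 17.6%. The intervals of OPC-like, mature and astrocyte-like cells did not overlap in either library. They cover counting error only, with no error between animals. The mature Gria2 share also rests on a Gria2 level that could not be told from background on the CPM scale.

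**Figure D2:**
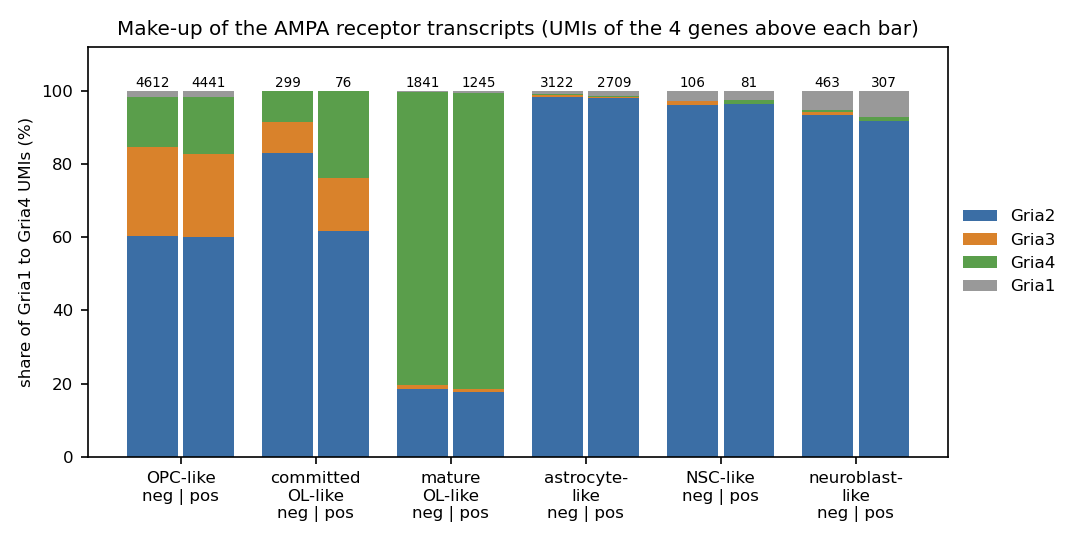
Stacked bars of the share of Gria1, Gria2, Gria3 and Gria4 UMIs (percent of the 4 genes) in each class, DTRneg left and DTRpos right, with the number of UMIs above each bar. Gria2 fills 98.3% and 98.2% of the astrocyte-like bars and Gria4 80.1% and 80.8% of the mature oligodendrocyte-like bars.

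At least 1 AMPA subunit UMI was found in 98.1% and 96.7% of OPC-like cells, 82.2% and 85.1% of astrocyte-like cells and 32.9% and 31.3% of mature oligodendrocyte-like cells, against 1.90% and 0.862% of endothelial cells. These shares move with depth, and after thinning to 2000 UMIs per cell they were 85.8% and 87.4% of OPC-like, 76.3% and 79.3% of astrocyte-like, 8.64% and 9.14% of mature and 1.28% and 1.68% of endothelial cells.

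Kainate receptor subunits were highest in OPC-like cells, where all 5 were called higher. Grik1, Grik2 and Grik3 can form channels alone, while Grik4 and Grik5 are high-affinity partners. OPC-like levels were 48.7 and 60.4 CPM for Grik2, 49.5 and 45.7 for Grik5, 36.7 and 52.0 for Grik4, 27.8 and 23.8 for Grik1 and 18.9 and 16.2 for Grik3. Grik2 was present in every class and in no endothelial cell, with 21.1 and 23.0 CPM in mature oligodendrocyte-like and 17.9 and 23.4 in astrocyte-like cells. Grik1 was also called higher in mature cells (6.62 and 5.46 CPM, adjusted p = 7.39e-05), a level below its OPC-like one. Grik5 stood at 29.9 and 22.6 CPM in astrocyte-like cells and was called higher there (adjusted p = 0.000384), a call that ended with total UMIs as the scale (adjusted p = 0.139).

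NMDA receptor genes split between OPC-like and astrocyte-like cells by subunit. Grin1, the subunit that every NMDA receptor contains, was low throughout, at 9.46 and 14.1 CPM in OPC-like cells and 2.11 and 4.36 in astrocyte-like cells. Grin3a, a subunit that lowers calcium permeability, stood at 164 and 177 CPM in OPC-like cells and 28.1 and 36.0 in astrocyte-like cells (adjusted p for OPC-like cells = 1.1e-174). Grin2c, a regulatory subunit, stood at 106 and 120 CPM in astrocyte-like cells and at 0.557 and 0.541 in OPC-like cells, below the endothelial 2.03 and 4.71. It was called higher in astrocyte-like cells (adjusted p = 6.52e-258). Grin2b was highest in stem cell-like cells, at 107 and 156 CPM on 15 and 13 UMIs, followed by astrocyte-like cells at 50.3 and 60.6 and neuroblast-like cells at 30.6 and 46.2. All 3 of these classes were called higher for Grin2b, and OPC-like cells had 0.835 and 0.812 CPM. Grin2d, another regulatory subunit, was found in OPC-like cells at 8.91 and 11.6 CPM.

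Grid1, a delta receptor, belongs to the orphan members of the glutamate receptor family. It stood at 42.3 and 52.0 CPM in OPC-like cells and at 25.6 and 25.4 in committed cells.

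Among metabotropic receptors, Grm5 had the highest level in OPC-like cells, and Grm3 in mature oligodendrocyte-like and astrocyte-like cells. Grm5, which couples to phospholipase C, stood at 216 and 217 CPM in OPC-like cells and 19.3 and 24.2 in astrocyte-like cells, and was called higher in both (adjusted p = 1.94e-261 and 4.37e-15). Grm3, which inhibits adenylyl cyclase, stood at 193 and 153 CPM in astrocyte-like cells, 120 and 107 in mature oligodendrocyte-like cells and 64.4 and 60.04 in stem cell-like cells, but at 3.34 and 1.08 in OPC-like cells. It was called higher in astrocyte-like cells (adjusted p = 3.45e-172) and mature cells (adjusted p = 1.02e-120). Grm3 was the single subunit called lower in OPC-like cells (adjusted p = 3.87e-36). Its stem cell-like call (adjusted p = 0.0147) was lost without the library block (adjusted p = 0.0666) and in DESeq2 (adjusted p = 0.0903).

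Of all metabotropic receptor UMIs, Grm5 made up 90.5% (88.3 to 92.3%) and 91.7% (89.6 to 93.4%) in OPC-like cells, and Grm3 made up 1.40% and 0.457%. Grm3 made up 93.5% and 91.3% in mature cells and 90.9% and 86.2% in astrocyte-like cells. Grm7, a presynaptic receptor in neurons, stood at 17.3 and 15.7 CPM in OPC-like cells and at 7.99 and 9.54 in mature cells, and had 0 and 1 UMI in astrocyte-like cells.

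Most GABA-A genes of the mouse lie in clusters, and 4 of them sit at chr5:70751047-72149037 (Gabrg1, Gabra2, Gabra4 and Gabrb1). In astrocyte-like against OPC-like cells 9 of 32 subunits were called higher and 17 lower, where 30.5% and 29.1% of all genes were called, and all 4 genes of this cluster were among the 9. Gabrb1 stood at 459 and 512 CPM against 50.4 and 57.9, Gabrg1 at 197 and 223 against 43.1 and 42.8, Gabra2 at 92.4 and 82.4 against 18.1 and 18.4, and Gabra4 at 60.4 and 59.0 against 16.1 and 12.99. The adjusted p-values of astrocyte-like against OPC-like cells were 4.54e-233, 5.28e-125, 5.13e-84 and 2.13e-46 in this order. With total UMIs as the scale 8 were higher and 22 lower, and of the 9 only Gabbr1 was lost.

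Gabrb2 and Gabra3 had the opposite order. Gabrb2 stood at 15.6 and 16.0 CPM in OPC-like cells against 0.351 and 0.396 in astrocyte-like cells. Gabra3, of the cluster at chrX:72255999-72842602, stood at 44.5 and 42.8 CPM in OPC-like cells against 0 and 0.396 in astrocyte-like cells. Gabrg3 stood at 17.5 and 15.2 CPM in OPC-like and 9.14 and 11.1 in astrocyte-like cells, a difference called with total UMIs as the scale (adjusted p = 0.0309) and not with TMM (edgeR's quasi-likelihood test, adjusted p = 0.979). Gabra5, Gabre and Gabrq were under 20 UMIs. Gabrr2, a rho subunit of chromosome 4, stood at 7.43 and 6.83 CPM in mature oligodendrocyte-like cells (266 and 154 UMIs, adjusted p = 4.38e-20). It had 1 UMI in OPC-like and 2 in astrocyte-like cells, and none in committed, stem cell-like and neuroblast-like cells. The exact Poisson upper limits were 7.865 and 23.45 CPM in committed cells and 26.39 and 44.3 CPM in stem cell-like cells. The mature level is thus not excluded in these small classes. In neuroblast-like cells the limits were 2.897 and 4.603 CPM.

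**Figure D3:**
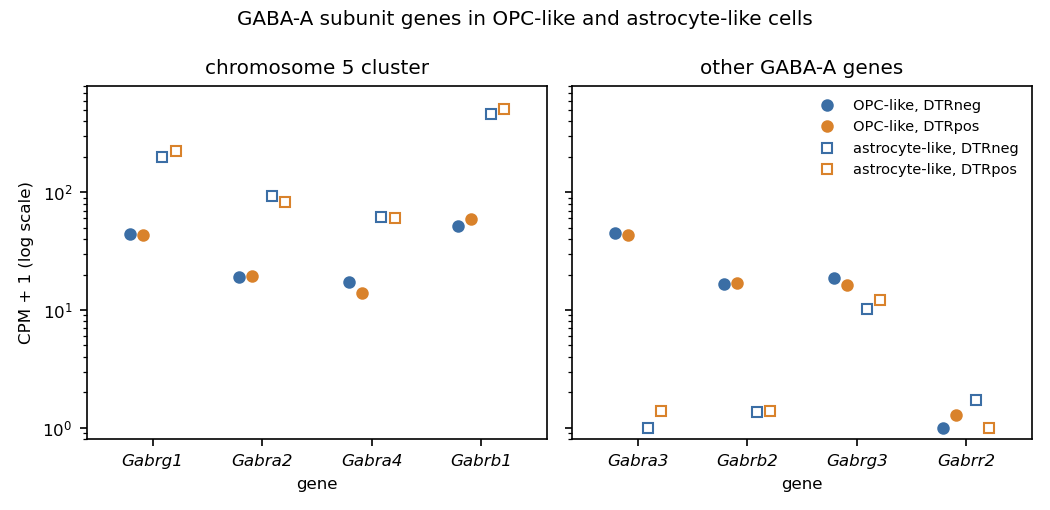
CPM + 1 (log scale) of the GABA-A genes of the chromosome 5 cluster, in chromosomal order (left), and of Gabra3, Gabrb2, Gabrg3 and Gabrr2 (right), in OPC-like cells (filled circles) and astrocyte-like cells (open squares) of DTRneg (blue) and DTRpos (orange). All 4 genes of chromosome 5 are higher in astrocyte-like cells, while Gabra3 and Gabrb2 are higher in OPC-like cells.

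At least 1 GABA-A subunit UMI was found in 90.9% and 87.6% of astrocyte-like cells, 75.6% and 70.4% of OPC-like cells and 9.69% and 8.71% of mature oligodendrocyte-like cells, against 1.05% and 1.72% of endothelial cells. After thinning to 2000 UMIs per cell the astrocyte-like shares were 78.2% and 79.1%, the OPC-like shares 46.0% and 46.0%, and the mature shares 2.65% and 2.47%.

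GABA-B subunits were distributed unlike each other. Gabbr1 was broad, at 196 and 180 CPM in OPC-like cells, 191 and 161 in mature oligodendrocyte-like cells and 208 and 220 in astrocyte-like cells, with 32.4 and 47.1 in endothelial cells. It was called higher in mature cells (adjusted p = 3.35e-27) and astrocyte-like cells (adjusted p = 7.22e-42), and its OPC-like call (adjusted p = 0.0105) was lost without the library block (adjusted p = 0.0721) and with Leiden clusters (adjusted p = 0.375). Gabbr2, its obligate partner, stood at 50.1 and 63.1 CPM in OPC-like cells and 30.6 and 44.7 in astrocyte-like cells. In mature oligodendrocyte-like cells Gabbr2 fell to 0.447 and 0.311 CPM, and in committed cells it had no UMI, which allows up to 6.40 and 19.1 CPM. Fitted differences depend on the scale: TMM scaling moved the median gene by 0.71 (log2) between mature and OPC-like and between astrocyte-like and OPC-like cells. On that scale Gabbr1 was called higher in mature than in OPC-like cells (log2 difference 0.61, adjusted p = 2.06e-09), and with total UMIs the difference was -0.10 (adjusted p = 0.33).

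Along the oligodendrocyte lineage most subunits were lower in committed and in mature cells than in OPC-like cells. Of 32 subunits, 21 were called lower and 1 higher in committed than in OPC-like cells, where 15.5% and 14.5% of all genes were called. In mature against OPC-like cells 27 were called lower and 3 higher (39.8% and 34.5% of all genes). The 3 were Grm3, Gabrr2 and Gabbr1, and the 27 lower calls were all kept with total UMIs as the scale. Grm3 was the 1 subunit higher in committed cells (10.7 and 44.5 CPM, on 5 and 7 UMIs, adjusted p = 1.13e-06).

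Gria3 was 5.61- and 3.92-fold lower in committed than in OPC-like cells and 506- and 475-fold lower in mature cells, on the CPM scale. The mature Gria3 levels (22 and 13 UMIs) lay within the endothelial intervals (0.0256 to 5.64 and 0 to 5.79 CPM). The mature folds are thus ratios to a level that could not be told from background on the CPM scale. Grm5 and Grin3a were already low in committed cells: Grm5 was 20.3- and 8.54-fold lower in committed cells, and Grin3a 25.6- and 9.30-fold lower. Those folds rest on 5 and 4 Grm5 UMIs and on 3 and 3 Grin3a UMIs in committed cells. Their log2 intervals were wide, at -5.97 to -3.11 and -4.97 to -1.73 for Grm5. For Grin3a they were -6.96 to -3.12 and -5.50 to -1.66. Gria4 was 3.31- and 1.63-fold lower in committed cells and 4.28- and 4.17-fold lower in mature cells. Grik2 moved least among the kainate subunits, 2.31- and 2.62-fold lower in mature cells. In committed cells 4 of 78 DTRneg cells (5.13%) and 0 of 31 DTRpos cells had any GABA-A UMI. A count of 0 of 31 allows up to 9.68% of cells with a UMI, which is no limit on cells that express these genes.

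**Figure D4:**
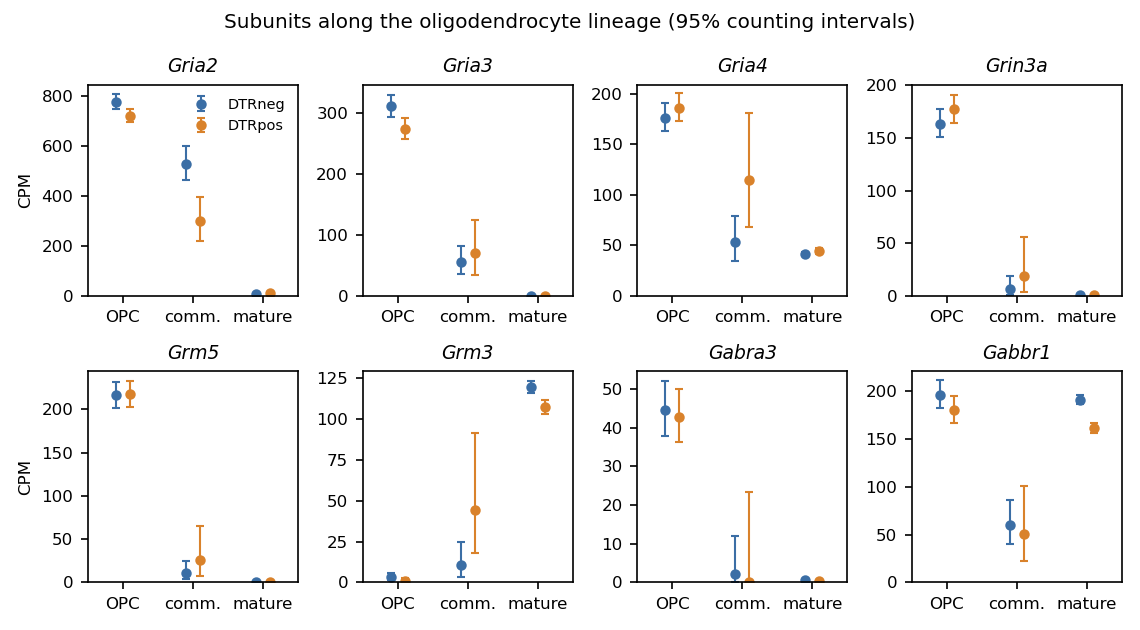
CPM of 8 subunits in OPC-like, committed and mature oligodendrocyte-like cells, DTRneg in blue and DTRpos in orange, with exact Poisson 95% intervals as bars. Gria3, Grin3a, Grm5 and Gabra3 drop from OPC-like cells to near 0 in mature cells, whereas Grm3 is highest in mature cells at 120 and 107 CPM.

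Gria3 (55.4 and 69.9 CPM), Gria4 and Grid1 were also called higher in committed cells against the mean of the other classes (adjusted p = 4.44e-16, 3.93e-10 and 3.79e-05), and the Gria4 call was lost in limma (adjusted p = 0.0686).

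Committed cells were uneven. The 5 cells with the most Gria2 UMIs held 44.8% of the class's Gria2 UMIs in DTRneg and 68.1% in DTRpos, and 46 of 78 and 19 of 31 cells had none. The Gria2 level of 529 and 299 CPM became 339 and 133 CPM without the 5 cells richest in subunit UMIs in each library. The call of Gria2 as higher in committed cells (adjusted p = 4.86e-05) was lost with Leiden clusters in place of marker classes (adjusted p = 0.416), after thinning (adjusted p = 1) and in limma (adjusted p = 0.297).

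Stem cell-like cells were set against astrocyte-like cells. Of 32 subunits, 8 were called lower and 0 higher in stem cell-like cells (7.58% and 2.81% of all genes; edgeR's quasi-likelihood test). With total UMIs as the scale 6 were lower and 1, Grin2b, higher (adjusted p = 0.0124). Gabrg1, at 28.6 and 24.02 CPM on 4 and 2 UMIs, was 6.88- and 9.27-fold lower than in astrocyte-like cells (adjusted p = 2.61e-16). The counting intervals of its log2 ratios were wide, at -4.66 to -1.42 and -6.26 to -1.35. Grin2c had 0 and 1 UMI in stem cell-like cells (adjusted p = 1.52e-10). Gabra2 had 14.3 and 12.01 CPM, on 2 and 1 UMIs, against 92.4 and 82.4 (adjusted p = 1.87e-06). Gabrb1, at 408 and 588 CPM, was lower than in astrocyte-like cells with TMM (adjusted p = 0.0223) and not with total UMIs (adjusted p = 1), and its CPM ratios had counting intervals that included no change in both libraries. Gabra4 stood at 64.4 and 48.0 CPM, on 9 and 4 UMIs, and was called higher against the mean of the other classes (adjusted p = 9.26e-07).

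Neuroblast-like cells, young neurons, combined Gria2 with Grin2b and Gabra2 (31.4 and 29.95 CPM), the last 2 called higher (adjusted p = 4.11e-20 and 1.16e-09). Markers of mature neurons were low in the glial classes: Rbfox3 stood at 0 to 0.557 CPM and Slc17a7 at 0 to 0.396 CPM, against 175 and 206 CPM of Rbfox3 in neuroblast-like cells. Snap25 and Syt1 stood higher in OPC-like cells, at 57.6 and 50.3 and at 26.7 and 26.8 CPM. Whether RNA of neurons adds to the OPC-like subunit levels was not tested beyond these values.

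Genes that work with the receptors were followed in a list of 58, of which 51 could be tested. In OPC-like cells 32 were called higher and 6 lower (28.4% and 13.9% of all genes), including 8 of 10 AMPA auxiliary genes and all 5 tested partners of kainate and delta receptors higher. Cacng4, an AMPA auxiliary subunit (TARP), stood at 737 and 745 CPM in OPC-like cells and 74.6 and 108 in committed cells. C1ql2, a secreted C1q-like protein, stood at 63.5 and 72.5 CPM, and Shisa7, a GABA-A auxiliary protein, at 65.4 and 77.4 (adjusted p = 3.52e-112 and 5.35e-110). Gad1, which makes GABA, was found in OPC-like cells at 25.6 and 23.0 CPM while its paralog Gad2 was at 0.278 and 0.271.

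Astrocyte-like cells had 23 of the 51 genes higher and 6 lower (32.9% and 15% of all genes), with 6 of 8 uptake genes and 5 of 7 enzymes higher. Slc6a11, a GABA transporter, stood at 335 and 358 CPM, and Slc7a11, the cystine-glutamate exchanger, at 226 and 244. Mature oligodendrocyte-like cells had 10 higher and 18 lower (32.8% and 19.8% of all genes), and the highest by fold were Kctd16, a GABA-B auxiliary subunit (8.33 and 10.5 CPM, adjusted p = 7.86e-18), and Cnih3, an AMPA auxiliary protein (4.81 and 4.97 CPM, adjusted p = 2.94e-05). Neither was highest in mature cells: Kctd16 stood at 9.19 and 12.2 CPM in OPC-like cells and at 0 in the other 4 classes, and Cnih3 was higher in neuroblast-like cells. In committed cells 12 were higher and 12 lower (15.2% and 8.27% of all genes), led by Slc1a1, a glutamate transporter (382 and 286 CPM), and Shisa9, an AMPA auxiliary protein (19.2 and 25.4 CPM), which stood at 72.6 and 86.9 CPM in OPC-like cells. Stem cell-like cells had 13 higher and 0 lower (8.28% and 5.99% of all genes), led by Cacng5 (42.9 and 36.0 CPM) and Slc1a3, a glutamate transporter (4314 and 4335 CPM). Neuroblast-like cells had 11 higher and 17 lower (28% and 18.9% of all genes), led by the AMPA auxiliary genes Cacng2 (12.6 and 6.24 CPM) and Cnih3 (19.6 and 29.95 CPM).

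Within astrocyte-like cells, those with Agt UMIs (361 and 376 cells) were set against those without (278 and 302). Agt, which encodes angiotensinogen, differs between kinds of astrocytes. Of 18 subunits with at least 20 UMIs in each library, 5 were higher beyond counting error in both libraries in Agt-positive cells and 0 were lower, where 0.842% and 0.725% of 8555 genes passed the same rule. Gabbr2 stood at 38.8 and 57.3 CPM in cells with Agt against 17.9 and 27.4 without, a log2 ratio of 1.12 and 1.07. Gria1 stood at 12.2 and 19.8 against 4.46 and 5.67 CPM, while Gria2, Gabrb1 and Gabrg1 differed by log2 ratios between 0.15 and 0.34. Agt-positive cells were also deeper, with medians of 4655 and 3712 UMIs against 4007.5 and 3489.5, and the part of depth was not tested. In mature oligodendrocyte-like cells split by Klk6 and in OPC-like cells split by the cycling genes Mki67 and Top2a, 0 of 13 and 0 of 27 subunits differed in both libraries. Over all genes 5.7% were higher and 1.65% lower with Klk6, and 1.67% higher and 0.661% lower in cycling cells. The cycling cells numbered 32 and 24, so a count of 0 there does not show that subunits were alike. Cells with Klk6 (304 and 213) were also deeper, with medians of 10975.5 and 11248 UMIs against 7532 and 6171.

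DTRpos was compared with DTRneg within each class. With 1 library per genotype there is no test, and genotype and library cannot be told apart. A gene was counted as past the threshold when its CPM differed by at least 1.5-fold, among genes with at least 20 UMIs in the class over both libraries, and intervals are exact 95% intervals for counting error.

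In OPC-like cells 0 of 28 subunits were past 1.5-fold, where 5.19% of 12759 genes were higher and 5.04% lower. Their median log2 ratio was 0.0059, beside 0.041 for all genes. Gria2 went from 777 to 721 CPM, a log2 ratio of -0.11 (-0.18 to -0.03). Gria3 went from 311 to 274 CPM (-0.18, -0.31 to -0.06), while Grm5 (0.01, -0.14 to 0.15) and Gabbr1 (-0.12, -0.28 to 0.03) had intervals that included no change. Grik4 (0.50, 0.17 to 0.83), Gabbr2 (0.33, 0.05 to 0.62) and Grik2 (0.31, 0.02 to 0.60) were higher in DTRpos by less than 1.5-fold. The intervals of the 4 subunits of the highest level all left out a 1.5-fold difference.

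In astrocyte-like cells 2 of 21 subunits were past 1.5-fold, Gria1 higher and Gria3 lower, both with intervals that included no change (7.07% of 10899 genes were higher and 5.28% lower). The median log2 ratio was 0.16, beside 0.046 for all genes. Gria2 (-0.03, -0.11 to 0.04) and Gabbr1 (0.08, -0.09 to 0.25) did not move beyond counting error. Gabrb1 went from 459 to 512 CPM (0.16, 0.04 to 0.27) and Gabrg1 from 197 to 223 (0.18, 0.01 to 0.35). Grm3 went from 193 to 153 CPM (-0.33, -0.52 to -0.14) and Gabbr2 from 30.6 to 44.7 (0.55, 0.13 to 0.97).

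In mature oligodendrocyte-like cells 3 of 21 were past 1.5-fold (5.76% of 14305 genes were higher and 4.19% lower), all at levels under 1 CPM. Grin2c went from 0.168 to 0.665 CPM on 6 and 15 UMIs (1.99, 0.54 to 3.64) and Gabrg1 from 0.335 to 0.843 on 12 and 19 UMIs (1.33, 0.21 to 2.51). Endothelial levels were higher, at 2.03 and 4.71 CPM for Grin2c (2 and 3 UMIs) and 2.03 and 1.57 for Gabrg1 (2 and 1 UMIs). Their exact Poisson intervals were wide, at 0.2453 to 7.316 and 0.9716 to 13.77 CPM for Grin2c. For Gabrg1 they were 0.2453 to 7.316 and 0.03976 to 8.75 CPM. The mature and endothelial intervals overlapped for both genes in both libraries. Whether background accounts for either difference was not tested. Gabra3 (19 and 6 UMIs) had an interval that included no change. The subunits of the highest level moved little: Gabbr1 went from 191 to 161 CPM (-0.25, -0.31 to -0.19), Grm3 from 120 to 107 (-0.16, -0.23 to -0.09), Gria4 from 41.2 to 44.6 (0.11, -0.00 to 0.23) and Grik2 from 21.1 to 23.0 (0.12, -0.04 to 0.29).

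**Figure D5:**
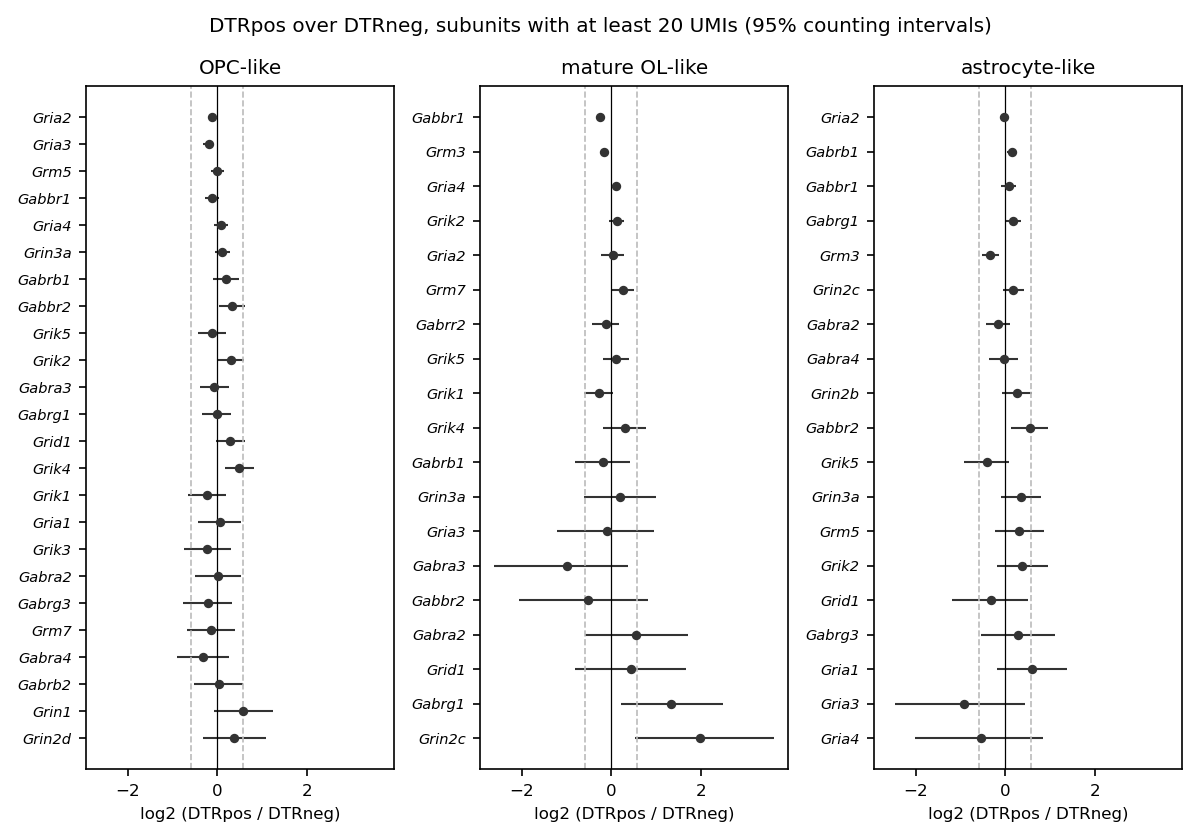
Log2 ratio of DTRpos to DTRneg CPM for subunits with at least 20 UMIs in OPC-like, mature oligodendrocyte-like and astrocyte-like cells, ordered by level with the highest at the top; bars are exact 95% counting intervals and dashed lines mark 1.5-fold. No OPC-like point lies past the lines, and the mature points past them are Grin2c, Gabrg1 and Gabra3 at the bottom of the panel.

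In committed cells 2 of 5 subunits were past 1.5-fold (13.4% of 4708 genes were higher and 16.4% lower). Gria2 went from 529 to 299 CPM (-0.82, -1.31 to -0.37) and Gria4 from 53.3 to 114 (1.10, 0.14 to 2.03). Gria2 thus made up 82.9% (78.2 to 87.0%) of AMPA subunit UMIs in DTRneg and 61.8% (49.98 to 72.8%) in DTRpos. These values rest on 78 and 31 cells, and with Leiden clusters or thinned cells the Gria4 ratio was -0.05 and -0.08. Gria3 (0.34, -0.83 to 1.40), Gabbr1 (-0.23, -1.58 to 0.94) and Grik2 (-0.01, -1.82 to 1.52) had wide intervals.

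In stem cell-like cells 1 of 4 subunits, Gabbr1, was past 1.5-fold (13.8% of 1854 genes were higher and 13.3% lower), from 136 to 204 CPM on 19 and 17 UMIs (0.59, -0.45 to 1.61). The other 3 were Gria2 (0.36, -0.08 to 0.80), Gabrb1 (0.53, -0.05 to 1.11) and Grin2b (0.54, -0.65 to 1.71), on 29 and 23 cells, and all these intervals included no change. In neuroblast-like cells 2 of 10 were past it, Grin2b (0.59, -0.10 to 1.28) and Gabra4 (-1.42, -3.45 to 0.20), where 8.8% of 8753 genes were higher and 9.07% lower. Gria2 in neuroblast-like cells stood at 339 and 352 CPM (0.05, -0.17 to 0.27), Gabbr1 at 60.5 and 49.9 (-0.28, -0.87 to 0.29) and Gabra2 at 31.4 and 29.95 (-0.07, -0.86 to 0.70). Among subunits with at least 20 UMIs in the class, none had an interval above no change in one class and below it in another.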

How the data were processed

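Members and gene lists were chosen with earlier results of these data known. The authors deposited unnormalized UMI counts for each gene in each cell barcode, from Cell Ranger 6.1.0 on mm10, per the submitters' processing notes, which also name Seurat. The annotation release is not given in the sources used here. Of the gene IDs, 55141 of 55487 matched GENCODE M21, and IDs that share a symbol were summed. The labels name a 3′ kit.

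Cells needed at least 500 genes and under 15% mitochondrial UMIs, and Scrublet (Scanpy 1.11.5) removed 241 and 158 doublets. A class needed at least 2 UMIs of its marker, at most 1 UMI of each other class marker and of 12 exclusion genes. Exceptions were Mog against Enpp6, where the larger count decided, and Aqp4 in stem cell-like cells. Of the stem cell-like cells, 41 of 52 lay in 1 Leiden cluster. Of the cells kept, 1131 and 1116 had no class. Leiden clusters were an alternative.

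Counts were summed by class and library and tested with edgeR 4.0.16 (R 4.3.3; TMM, filterByExpr, quasi-likelihood). Sums of a library share its animals, so the library is a block. Deviations of the 6 classes between libraries correlated with r between 0.0165 and 0.237 in 15 pairs. Tested on simulated data for OPC-like cells against the mean of the other 5 classes (12367 genes), the fit recovered 80.8% of 2-fold and 100% of 4-fold changes and called 0.0986% of unchanged genes. Subunits were named by class when called higher with at least 20 CPM in both libraries (the 6 highest), and between libraries when past 1.5-fold with an interval that left out no change, with the 4 highest by level. Receptor partners were named as the 2 highest by fold in each class. Other subunits were named to account for all members. Pairs of classes, limma 3.58.1 on log2 CPM (prior count 2) and total UMIs as the scale were added after seeing the data, and DESeq2 1.42.0 was also run. The meningeal samples were not analysed here. Some subunits are counted in totals but are not reported here by name.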

Additional observations from a re-analysis of the deposited data

How the results depend on the processing

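Leaving out a replicate was not possible, since each genotype has 1 library. Counts of called subunits that moved by over 1.5 times are given with the reported count in brackets, and the causes were not tested. The following counts, without the replicate block, moved by less than 1.5 times. They were 27 higher [28] and 1 lower [1] in OPC-like cells and 5 higher [6] in stem cell-like cells. In stem cell-like against astrocyte-like cells 7 [8] were lower. Gabbr1 (edgeR's quasi-likelihood test, adjusted p = 0.0721) and Grm3 (adjusted p = 0.0666) lost their OPC-like and stem cell-like calls. Lower in OPC-like cells [1] were 2 with Leiden clusters, 3 in DESeq2 (43 subunits tested there, against 32) and 2 in limma. In committed cells, higher [5] became 3 thinned and 1 in limma, and lower [7] became 2 thinned and 4 in DESeq2. Lower in mature cells [10] became 6 with 3 marker UMIs, 16 with Leiden clusters and 24 in DESeq2. Lower in astrocyte-like cells [1] became 2 with 1 marker UMI, Leiden clusters, limma or total UMIs, 3 in DESeq2 and 0 thinned. In stem cell-like cells, higher [6] became 13 with 1 marker UMI, and lower [0] became 1 with 1 marker UMI, 2 with Leiden clusters and 11 in limma. In neuroblast-like cells, higher [5] became 3 thinned and lower [10] became 6 with 3 marker UMIs. Lower in astrocyte-like against OPC-like cells [17] became 10 in limma. In stem cell-like against astrocyte-like cells, higher [0] became 1 with 1 marker UMI, DESeq2 or total UMIs and 3 with Leiden clusters, and lower [8] became 5 in DESeq2.

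Subunits past 1.5-fold between the libraries moved in every class. In OPC-like cells [0] there was 1 with 3 marker UMIs, Leiden clusters or thinning and 2 with cells weighted equally. In committed cells [2] there was 1 with 1 marker UMI, thinning, 2-fold or 50 UMIs and 5 with Leiden clusters. In mature cells [3] there were 6 with 1 marker UMI, 5 with 3 marker UMIs, 7 with doublets kept, 5 with cells weighted equally, 1 thinned and 0 at 50 UMIs. In astrocyte-like cells [2] there were 4 with Leiden clusters, 1 with 3 marker UMIs, under 10% mitochondrial UMIs, doublets kept or 50 UMIs and 0 at 2-fold. In stem cell-like cells [1] there were 3 with 1 marker UMI, 2 with 3 marker UMIs or Leiden clusters and 0 thinned, at 2-fold or at 50 UMIs. In neuroblast-like cells [2] there was 1 with 1 marker UMI, doublets kept, thinning, 2-fold or 50 UMIs and 0 with Leiden clusters. The share of Gria2 became 58.4% in OPC-like DTRpos, 24.04% and 20.7% in mature, 98.8% in astrocyte-like DTRneg and 90.6% in neuroblast-like DTRneg cells after thinning, and 100% in stem cell-like DTRneg cells with 3 marker UMIs. The log2 difference of Gria2 in committed cells against the mean of the other 5 classes turned to -0.000341 after thinning, and the log2 ratio of Gria4 between the libraries in committed cells to -0.05151 with Leiden clusters and -0.07696 after thinning.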
